A study of Oryza sativa with 8 samples.

Results

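These results concern 150 rice genes whose transcripts were lower in root tips kept in ethylene and, both without and with ethylene, higher in the calcium group than in the group it is compared with. They are 150 of the 57359 gene IDs in a count table of 8 poly(A) RNA-seq libraries. The table gives IDs and lengths but no gene names, and none of the 57359 IDs matched a rice RefSeq table of 39387 genes, so the genes are described by level, response, length and ID, and 4 of them are named by ID. Without names, the root label could not be checked against marker genes, and no pathway list could be filled.

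All libraries came from root tips of 1 rice genotype, Dongjin. Seeds germinated for 2 days at 37 °C in the dark, and the seedlings were then kept for 3 days at 28 °C in the dark in airtight boxes. The 4 groups hold 2 libraries each. Control (replicates 1 and 2) and calcium (replicates 1 and 2) had no ethylene label and are called the air groups here, while ethylene (replicates 3 and 4) and calcium and ethylene (replicates 2 and 3) carry the ethylene label, with 2 ppm given as the gas dose. The calcium was CaCl2. Its concentrations are not in the labels, nor is it stated which group had low and which had normal calcium, so "higher with calcium" means higher in the group whose label includes calcium. The labels do not tie the replicates to separate plants or boxes, so the spread within a group may be technical.

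Ethylene is a gaseous plant hormone. Its receptors sit in the endoplasmic reticulum membrane and, without the gas, keep a kinase active that blocks signalling. When ethylene binds, the block is lifted and transcription factors of the EIN3 family change the expression of many genes. In dark-grown rice seedlings ethylene shortens the root and lengthens the coleoptile. Calcium is both a second messenger, read by calmodulins and calcium-dependent protein kinases, and a structural ion that cross-links pectin in the cell wall.

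The genes were chosen from the measured values themselves. Counts were scaled to the library total as CPM, the count of a gene per 1000000 counts of its library. A mean level of 10 CPM or more over the 8 libraries was reached by 14274 genes, of which 2735 had a mean in the 4 air libraries of 1.5 to under 3 times that in the 4 ethylene libraries, which is called the ethylene band below. Of these, 314 also had a calcium to control ratio and a calcium and ethylene to ethylene ratio of at least 1.25 each. The 150 genes are those with the highest product of these calcium ratios. The product was 2.024 at rank 149 and 2.023 at rank 150, and 2.022 and 2.017 at ranks 151 and 152, so the lower edge of the selection marks no gap. The directions below follow from this choice and are given as a description.

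In every library the 150 genes together held a small share of the counts. The share was 0.708% and 0.667% in control replicates 1 and 2, and 0.865% and 1.15% in calcium replicates 1 and 2. It was 0.381% and 0.245% in ethylene replicates 3 and 4, and 0.578% and 0.455% in calcium and ethylene replicates 2 and 3. No library of a group thus overlapped with a library of another group, and the order of the groups was calcium, control, calcium and ethylene, ethylene. As group means the shares were 1.01% ± 0.204 (SD, n = 2), 0.688% ± 0.0286, 0.516% ± 0.0870 and 0.313% ± 0.0963 in that order. In bulk tissue, fewer cells of a type that uses these genes and less RNA of them per cell cannot be told apart.

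The same order was seen gene by gene. The group means ran calcium, control, calcium and ethylene, ethylene from highest to lowest in 138 of the 150 genes, and in the other 12 the calcium and ethylene mean lay at or above control. The replicates of a group were not alike. Calcium replicate 2 held the highest of the 8 values in 136 genes, and ethylene replicate 4 the lowest in 138 genes. Over the 2735 genes of the ethylene band, calcium replicate 2 was highest in 63.6% and ethylene replicate 4 lowest in 70.4%. These are also the deepest libraries, with 23812792 and 25907083 counts against 19099091 to 21529126 in the other 6. Whether depth or the handling of these libraries has a part in the result was not tested.

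**Figure D1:**
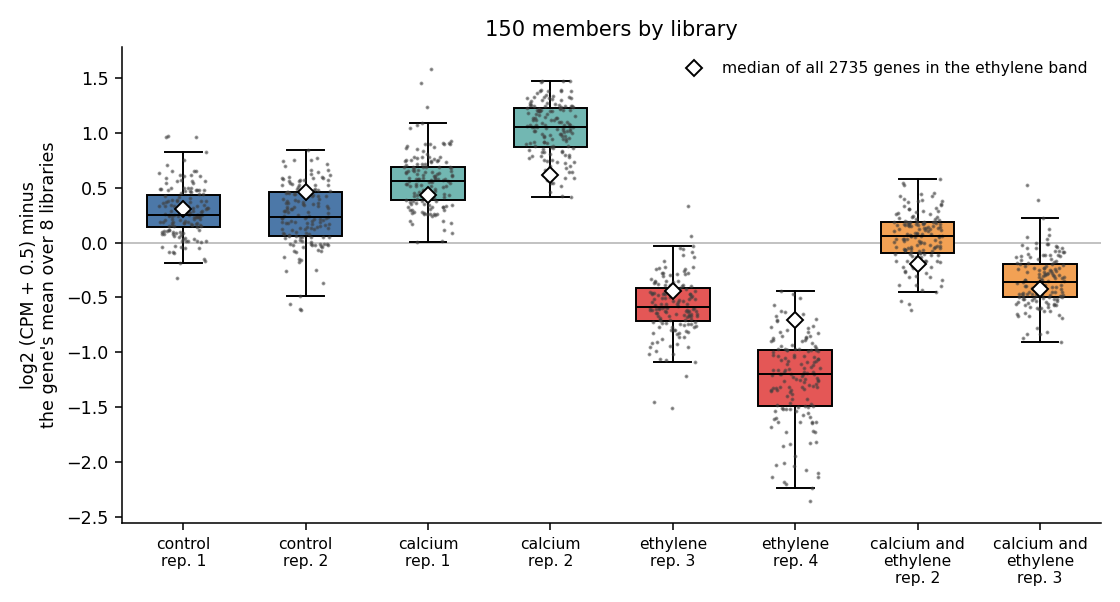
Level of the 150 genes in each library, as log2 (CPM + 0.5) minus the gene's own mean over the 8 libraries; points are genes, boxes show quartiles and median, whiskers reach 1.5 times the box height, and diamonds give the median of all 2735 genes in the ethylene band. The median of the 150 genes is highest in calcium replicate 2 (1.06) and lowest in ethylene replicate 4 (-1.20), while calcium replicate 1 (0.57) and ethylene replicate 3 (-0.59) lie closer to the control libraries (0.25 and 0.24).

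The 150 genes were lower with ethylene at both calcium supplies, as the selection requires of the mean. The ratio of the air mean to the ethylene mean had a median of 2.09, with quartiles of 1.75 and 2.44. It was under 2 in 67 genes, from 2 to under 2.5 in 56 and 2.5 or more in 27. Ethylene alone left a median of 0.442 of the control level (quartiles 0.379 and 0.534), and ethylene with calcium left a median of 0.499 of the calcium level (quartiles 0.431 and 0.602). Every one of the 150 genes had a lower mean in ethylene than in control, and a lower mean in calcium and ethylene than in calcium. Both control libraries lay above both ethylene libraries in 144 genes, where this separation was seen in 37.7% of all 27008 genes tested and 97.8% of the ethylene band. Both calcium libraries lay above both calcium and ethylene libraries in 140 genes, against 32.1% of all genes tested and 96.7% of the band. All 4 air libraries lay above all 4 ethylene libraries in 83 of the 150 genes, against 21.3% of all genes tested and 87.9% of the ethylene band.

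Calls by edgeR's quasi-likelihood test, at a Benjamini-Hochberg adjusted p under 0.05 over all 27008 genes, are given beside the share called over all genes, and nothing is read from them because the selection used the same contrasts. All 150 genes passed the filter on low counts. In ethylene against control 65 of the 150 genes were called lower, where 7.92% of all genes tested and 57.7% of the ethylene band were. In calcium and ethylene against calcium 51 were called lower, against 8.36% of all genes tested and 54% of the band. Calls in both comparisons were made for 40 genes, against 5.52% of all genes tested and 41.8% of the band. In neither comparison were 74 genes called, against 89.2% and 30.1%. These comparisons share no library, but their tests share the estimate of the spread. With the ethylene effect averaged over both calcium supplies, 131 were called lower, against 18.5% of all genes tested and 94.9% of the band. All 27 genes with an air to ethylene ratio of 2.5 or more were among these 131, as were 54 of the 56 genes from 2 to under 2.5 and 50 of the 67 genes under 2. The median log2 fold changes were -1.08, -0.98 and -1.02 in the 3 comparisons, and those over all genes tested were 0.02, 0.01 and 0.02.

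Single libraries moved these counts. Leaving out control replicate 1 or 2 turned the 65 calls into 20 or 0, and leaving out ethylene replicate 3 or 4 turned them into 101 or 19. Over all genes the 4727 calls in either direction became 2486 or 283 and 4820 or 1985 in the same fits. The 51 calls became 1 without calcium replicate 2. They became 8 or 0 when calcium and ethylene replicate 2 or 3 was dropped, 29 or 33 when control replicate 1 or 2 was dropped, and 84 or 81 when ethylene replicate 3 or 4 was dropped. Over all genes the 4798 calls became 839, then 1110 or 535, 3767 or 3807, and 5707 or 5660 in that order. The 131 calls became 82 without calcium and ethylene replicate 3, while those over all genes went from 10526 to 7219. With the replicate number as a block the 65 calls became 0 and the 131 became 9, where all genes had 42 and 1938 calls; numbers 3 and 4 are not shared with control, and the labels do not say what the numbers mark. Where a fit had a lone library in a group, its spread was taken from the other groups.

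Calcium was the smaller of the differences, which the unequal thresholds shape in part. The selection asked for at least 1.25 in each calcium ratio and for 1.5 to under 3 in the air to ethylene ratio. The calcium to control ratio had a median of 1.45, with a range of 1.25 to 2.33, and it was under 1.5 in 84 genes and 2 or more in 2. The calcium and ethylene to ethylene ratio had a median of 1.65, with a range of 1.27 to 3.24, and it was under 1.5 in 32 genes and 2 or more in 13. Both ratios reached 1.5 in 43 genes, and 1 gene had 2 or more in both. The 164 genes that passed every threshold but ranked below the 150 had medians of 1.30 and 1.37. Over the whole ethylene band the medians were 1.11 and 1.23, so the typical gene of the band was also higher with calcium. Those band medians were 1.03 without calcium replicate 2 and 1.11 without ethylene replicate 4, respectively.

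The calcium ratios without and with ethylene come from different libraries. Of the 2735 genes in the ethylene band, 449 (16.4%) had a calcium to control ratio of at least 1.25 and 1252 (45.8%) a calcium and ethylene to ethylene ratio of at least 1.25. The 314 genes with both make up 69.9% of the 449 and 25.1% of the 1252. In the opposite direction, 73 genes had a calcium to control ratio of 0.8 or less and 144 a calcium and ethylene to ethylene ratio of 0.8 or less, with 42 genes in both. Genes that went opposite ways at these limits were few, with 3 higher without ethylene and lower with it, and 3 the reverse. Genes of 1 library share its depth and handling and are not independent, so these shares are a description.

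**Figure D2:**
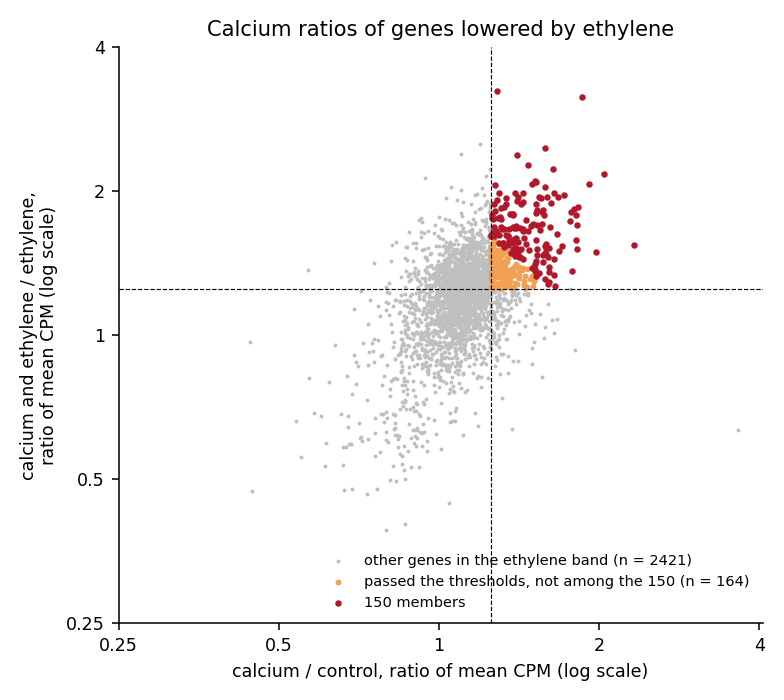
Ratio of mean CPM in calcium to control (horizontal, log scale) and in calcium and ethylene to ethylene (vertical, log scale) for the 2735 genes in the ethylene band, with the 150 genes in red, the 164 genes that passed the thresholds but ranked lower in orange, and dashed lines at the threshold of 1.25. The 150 genes form the outer edge of a continuous cloud whose medians are 1.11 and 1.23, and not a separate cluster.

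Replicates separated less well by calcium than by ethylene. Both calcium libraries lay above both control libraries in 113 of the 150 genes, against 16.6% of all genes tested and 32.2% of the ethylene band. Both calcium and ethylene libraries lay above both ethylene libraries in 113 genes, against 24.8% of all genes tested and 43.3% of the band. Both separations held in 86 genes, against 6.32% and 16.3%. edgeR called 0 of the 150 genes in calcium against control, with 28 at an unadjusted p under 0.05, and 0 in calcium and ethylene against ethylene, with 49. Averaged over both, it called 0, with 107 at an unadjusted p under 0.05. Over all genes tested, 0% were called higher in each of these comparisons, and 1.22%, 2.28% and 3.35% were higher at an unadjusted p under 0.05. DESeq2 called 0, 3 and 10 of the 150 genes, where it called 0.0037%, 0.0813% and 0.163% of the genes it gave an adjusted p as higher. When ethylene replicate 3 was dropped, so that replicate 4 stood for the whole ethylene group, edgeR called 8 of them in the second comparison and 9 in the average, against 0.605% and 0.223% of all genes called higher in that fit. The selection used these contrasts, so neither the calls nor the unadjusted p-values support the direction.

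The size of the calcium ratios rested on single libraries. Over the 150 genes, calcium replicate 1 had a median of 1.21 times control replicate 1 and 1.21 times control replicate 2, while calcium replicate 2 had 1.70 and 1.69 times them. Calcium replicate 2 was above calcium replicate 1 in 136 of the 150 genes, with a median ratio of 1.41, and in 77.6% of the ethylene band, with a median of 1.16. With ethylene, calcium and ethylene replicate 2 had a median of 1.52 times ethylene replicate 3 and 2.37 times ethylene replicate 4, and calcium and ethylene replicate 3 had 1.13 and 1.78 times them. Ethylene replicate 4 was above ethylene replicate 3 in 12 of the 150 genes, with a median ratio of 0.621. Calcium and ethylene replicate 3 was above replicate 2 in 15, with a median ratio of 0.741. Over the band these were 22.0% with 0.822 and 21.3% with 0.850, in that order. The control libraries differed least, with replicate 2 above replicate 1 in 78 genes and a median ratio of 1.01. Over the band control replicate 2 was above replicate 1 in 75.7%, with a median ratio of 1.11. All 8 pairings of a calcium library with its comparison library kept a median above 1, in genes selected for high calcium ratios. Over the ethylene band the lowest of these medians was 0.98, for calcium replicate 1 over control replicate 2. The highest was 1.45, for calcium and ethylene replicate 2 over ethylene replicate 4. Ratios of single libraries were taken after adding 0.5 CPM.

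Without calcium replicate 2 the median calcium to control ratio of the 150 genes fell from 1.45 to 1.20, and without calcium replicate 1 it was 1.69. Without ethylene replicate 4 the median calcium and ethylene to ethylene ratio fell from 1.65 to 1.34, and without ethylene replicate 3 it was 2.17. It was 1.41 without calcium and ethylene replicate 2 and 1.91 without replicate 3. The same selection applied to 7 libraries picked 40 of the 150 genes again without calcium replicate 2, when 107 genes passed every threshold, and 78 again without ethylene replicate 4, when 151 passed. It picked 94 again without calcium and ethylene replicate 2 and between 105 and 128 without each of the other 5 libraries. With calcium replicate 2 and ethylene replicate 4 both left out, a setting added after these libraries were seen to stand apart, 55 genes passed and 21 of the 150 were among them.

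Calcium ratios that the choice did not use on either side were had by leaving out 1 library of each group of a ratio, picking the genes again from the other 6 and taking the ratio between the left-out libraries. This setting was added after the data had been seen, and the genes so picked are not all among the 150. Without ethylene the left-out ratios were low. Calcium replicate 1 had a median of 1.13 times control replicate 1 and was higher in 117 of 150 genes, against 1.08 and 75.3% of genes over the ethylene band. It had 1.07 times control replicate 2 and was higher in 89 of 150 (59.3%), against 0.989 and 47.3%. Calcium replicate 2 had 1.25 times control replicate 1, with 85 of 103 genes higher (82.5%), against 1.24 and 82.8% over the band. It had 1.23 times control replicate 2, with 126 of 150 genes higher (84.0%), against 1.12 and 72.2%. The libraries that took part in these choices had medians of 1.35 to 1.74 for the same genes.

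With ethylene the left-out ratios depended on the libraries set against each other. Calcium and ethylene replicate 3 had a median of 1.04 times ethylene replicate 3 and was higher in 85 of 150 genes (56.7%), against 1.02 and 55.4% over the band. Calcium and ethylene replicate 2 had 1.35 times ethylene replicate 3 and was higher in 133 of 150 (88.7%), against 1.20 and 83.8%. Calcium and ethylene replicate 2 had a median of 1.83 times ethylene replicate 4, with 77 of 83 genes higher (92.8%). Over the band these were 1.44 and 83.2%. Calcium and ethylene replicate 3 had 1.60 times ethylene replicate 4, with 140 of 150 genes higher (93.3%), against 1.23 and 72.2%. The medians of the picked genes and of the band lay nearest to each other for calcium replicate 2 with control replicate 1 and for calcium and ethylene replicate 3 with ethylene replicate 3. No test was made of these values, since genes of 1 library are not independent.

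**Figure D3:**
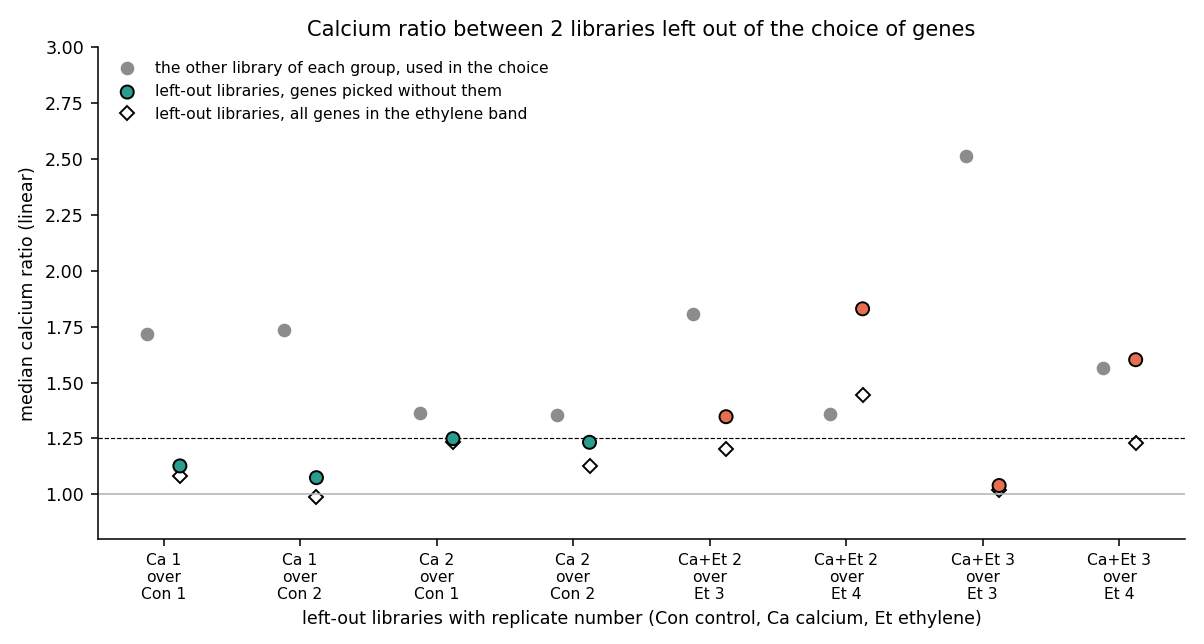
Median calcium ratio between a pair of libraries left out of the choice of genes (coloured points), for the genes picked without them; grey points give the remaining library of each group for the same genes, diamonds the left-out pair over all genes of the ethylene band, and the dashed line the threshold of 1.25. Without ethylene (left 4) the left-out medians run from 1.07 to 1.25, and with ethylene (right 4) from 1.04 to 1.83, with the highest against ethylene replicate 4.

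Calcium and ethylene against control shows where the combined treatment left the genes. The mean in calcium and ethylene was a median of 0.752 of control, with quartiles of 0.630 and 0.876 and a range of 0.482 to 1.26. As a share of the difference between control and ethylene, the calcium and ethylene mean stood a median of 54.9% of the way from ethylene to control (quartiles 40.4% and 74.4%), against 22.5% over the ethylene band. In the 12 genes where it reached or passed control, the calcium to control ratio had a median of 1.74 and ethylene alone had left a median of 0.587 of control. Both calcium and ethylene libraries lay above both control libraries in 1 of these 12, against 30.9% of all genes tested and 0.0366% of the band, where it was the same single gene. Both control libraries lay above both calcium and ethylene libraries in 88 of the 150 genes, against 32.0% of all genes tested and 93.1% of the band. edgeR called 2 of the 150 genes lower than control, against 4.74% of all genes tested and 28.2% of the band, with a median log2 fold change of -0.40. With 1 library left out, this median log2 fold change ran from -0.59 to -0.29. The number of calls also moved, both among the 150 genes and over all genes. The group means behind this comparison were used in the selection.

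Whether the calcium difference was larger with ethylene was read from the interaction. The selection filtered and ranked on both calcium ratios that the interaction compares, so its values are a description. The calcium and ethylene to ethylene ratio exceeded the calcium to control ratio in 112 of the 150 genes, and in 102 after TMM normalisation. Over the ethylene band the median calcium ratio by library-total CPM was also higher with ethylene, at 1.23 against 1.11. After TMM normalisation the band medians lay closer together, at 0.22 with ethylene against 0.15 without on the log2 scale. The median interaction was 0.14 on the log2 scale (range -0.67 to 1.27), against 0.00 over all genes tested and 0.05 over the ethylene band. edgeR called 0 of the 150 genes, 0 had an unadjusted p under 0.05, and DESeq2 also called 0, where 0% of all genes tested were called. The 95% interval of a gene's interaction reached a median of 1.01 to either side on the log2 scale, so differences between the calcium ratios of under about that size could not be resolved gene by gene. The median rested on single libraries: it was 0.46 without ethylene replicate 3 and 0.39 without calcium replicate 2, and it turned to -0.16 when ethylene replicate 4 was dropped, -0.10 for calcium replicate 1 and -0.05 for calcium and ethylene replicate 2.

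Of the genes whose replicates separated in both calcium comparisons, AGIS_Os07g032590 and AGIS_Os02g003700 had the highest product of the calcium ratios. AGIS_Os07g032590, with a length of 2685 bases, had 23.8 and 15.2 CPM in control replicates 1 and 2 and 33.0 and 39.6 CPM in calcium replicates 1 and 2. It had 7.12 and 3.28 CPM in ethylene replicates 3 and 4 and 17.6 and 15.1 CPM in calcium and ethylene replicates 2 and 3. Ethylene alone held the lowest pair of values and calcium the highest, and the calcium and ethylene pair overlapped with control. Its calcium to control ratio was 1.86 and its calcium and ethylene to ethylene ratio 3.15, with the first rank of the 150 by product. In the edgeR fit the log2 difference was 0.89 (SE 0.35) for calcium against control and 1.59 (SE 0.37) for calcium and ethylene against ethylene, and its interaction of 0.70 had an interval from -0.45 to 1.84.

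AGIS_Os02g003700, with a length of 2517 bases, had 25.7 and 30.01 CPM in control replicates 1 and 2 and 38.9 and 67.5 CPM in calcium replicates 1 and 2. It had 13.4 and 18.3 CPM in ethylene replicates 3 and 4 and 43.3 and 22.3 CPM in calcium and ethylene replicates 2 and 3. Here ethylene replicate 4 was the higher of its pair, unlike in most of the 150 genes. The calcium and ethylene libraries lay on either side of control, and their mean was 1.18 times that of control. The log2 difference was 0.93 (SE 0.35) for calcium against control and 0.95 (SE 0.35) for calcium and ethylene against ethylene, and the interaction was 0.02 with an interval of -1.11 to 1.14. Its ethylene difference averaged over calcium was -0.70 (SE 0.25), and edgeR did not call it in that comparison (adjusted p = 0.0539), in ethylene against control (0.192) or in calcium and ethylene against calcium (0.195).

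Of the genes whose 4 air libraries all lay above the 4 ethylene libraries, AGIS_Os03g047760 and AGIS_Os02g038020 had the highest air to ethylene ratios, 2.99 and 2.95, just under the upper limit of the selection. AGIS_Os03g047760, with a length of 793 bases, had 14.2 and 17.0 CPM in control replicates 1 and 2 and 18.8 and 20.5 CPM in calcium replicates 1 and 2. It had 5.76 and 2.82 CPM in ethylene replicates 3 and 4 and 8.85 and 6.14 CPM in calcium and ethylene replicates 2 and 3. None of the 4 groups overlapped with another. Its mean in calcium and ethylene was 0.482 of control, the lowest such ratio of the 150 genes, and its log2 difference averaged over calcium was -1.57 (SE 0.24) for ethylene.

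AGIS_Os02g038020, with a length of 1564 bases, had 45.7 and 42.1 CPM in control replicates 1 and 2 and 47.9 and 72.7 CPM in calcium replicates 1 and 2. It had 14.8 and 10.5 CPM in ethylene replicates 3 and 4 and 27.4 and 17.9 CPM in calcium and ethylene replicates 2 and 3. Its groups did not overlap either, but calcium replicate 1 was close to control and calcium replicate 2 set the calcium mean. The log2 difference was -1.55 (SE 0.19) for ethylene averaged over calcium, 0.46 (SE 0.26) for calcium against control and 0.75 (SE 0.27) for calcium and ethylene against ethylene.

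**Figure D4:**
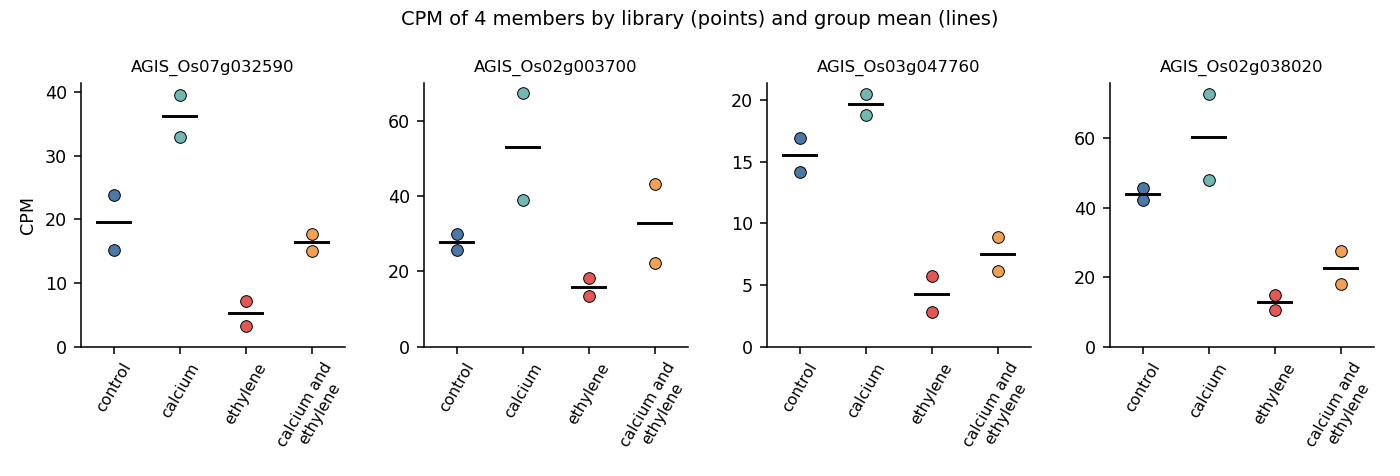
CPM of the 4 named genes in each library (points) with the group mean (line), on a linear axis from 0. In each gene ethylene has the lowest mean and calcium the highest; calcium and ethylene reaches the range of control in AGIS_Os07g032590 and AGIS_Os02g003700 and stays below it in AGIS_Os03g047760 and AGIS_Os02g038020.

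Per length, the 150 genes were moderately expressed. As length-scaled TPM, their means over the 8 libraries ran from 4.204 to 941.5 with a median of 19.6, against a median of 25.7 over the 14274 genes at the level floor and 29.9 over the ethylene band. The gene with 941.5 TPM, of 760 bases, alone held 7.67% of the counts of the 150 genes, and the next highest by TPM had 369.8 TPM. By the CPM that the selection used, 65 genes had a mean of 10 to under 20, 47 of 20 to under 50, 25 of 50 to under 100 and 13 of 100 or more. The lowest count behind any value of the 150 genes was 40 reads, in ethylene replicate 4, and 87 to 386 reads in the other libraries, which covers counting error only.

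Length and place in the ID order were not used by the selection. The 150 genes had a median length of 1995 bases (quartiles 1308.8 and 2544.0), the ethylene band 1617 bases and all genes at the level floor 1916.5 bases. The genes of the ethylene band were thus shorter by median than the genes at the level floor, and the 150 genes were not. Across the 14274 genes, length had a Spearman correlation of -0.096 with the log2 ratio of ethylene replicate 4 to replicate 3, of -0.057 with that of calcium replicate 2 to replicate 1, of -0.10 with that of control replicate 2 to replicate 1 and of -0.29 with that of calcium and ethylene replicate 3 to replicate 2. The part of length in the calcium ratios was not tested.

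The IDs carry a chromosome number. It was 1 in 29 of the 150 genes (19.3%), where it was 1 in 14.5% of the genes at the level floor and 14.7% of the ethylene band. It was 3 in 24 (16%, against 14.04% and 13.7%) and 2 in 18 (12%, against 11.99% and 11.9%), and each of the other 9 numbers was found in 5 to 11 genes. In 0 cases did a pair of the 150 genes have directly successive IDs, and 3 pairs lay within 5 places of each other. Among the 2735 genes of the ethylene band, a larger set, these were 240 and 830 pairs. The pairs were not scaled to the size of the set, so no trait of the 150 genes is read from them. No test of the chromosome shares or the pairs was made.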

How the data were processed

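The authors deposited 1 table of whole-number read counts per gene for 8 libraries, with a gene length in bases. Per the submitters' processing notes it was made with fastp and featureCounts. The sources used here name no aligner, build, annotation version or strand setting, and overlapping, antisense or near-identical genes may therefore share reads. Totals ran from 19099091 to 25907083 counts. Groups came from the treatment labels.

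CPM used the column total, and TPM was computed from the deposited counts and lengths. Counts were fitted in R 4.3.3 with edgeR 4.0.16: filterByExpr with a minimum count of 10 (27008 genes, 99.94% of counts), TMM, and 1 robust quasi-likelihood model of 4 groups with 4 residual degrees of freedom. P-values were adjusted by Benjamini-Hochberg over all genes tested, and 0.05 was the threshold. Each standard error was derived from a fold change and its F statistic. Other settings tried were DESeq2 1.42.0, a block for the replicate number, RLE size factors, fits of just the groups compared, no low-count filter, TMM-scaled CPM, a floor of 20 CPM and leaving out each library. Figures were drawn with matplotlib 3.10.9.

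The 150 genes, and all tests, were chosen with earlier results of these data known. The named genes are the 2 with the highest product of the calcium ratios among those whose libraries do not overlap in both calcium comparisons, and the 2 others with the highest air to ethylene ratio among those with all air libraries above all ethylene libraries. Marker and pathway lists were not used, since no ID could be paired with a name.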

Additional observations from a re-analysis of the deposited data

How the results depend on the processing

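Scaling did not move the choice much: with TMM-scaled CPM 135 of the 150 genes were picked again, and the median log2 fold changes kept their sign under RLE size factors. A floor of 20 CPM kept 85, which follows from the 65 genes under that floor. Leaving out 1 library, 40 to 128 were picked again, and 21 without calcium replicate 2 and ethylene replicate 4, a setting added after the data had been seen. Same-numbered libraries were not treated as paired, because no label says what the numbers mean. Deviations from group means correlated at 0.18 for control with calcium. Both pairs give this value by construction, since the 2 libraries of a group deviate by equal and opposite amounts. The correlation was 0.104 and 0.107 for number 2 of control and of calcium with the combined treatment, and 0.0154 for number 3. These values do not decide whether same-numbered libraries share material. With the replicate number as a block, which rests the ethylene group on replicate 3 alone, the calls became 0 in place of 65 in ethylene against control (median log2 fold change -0.58 in place of -1.08), 9 in place of 131 for the mean ethylene effect and 0 in place of 2 in calcium and ethylene against control. Over all genes the same fit called 42, 1938 and 1847 in these comparisons, against 4727, 10526 and 2659 without the block. The block fit also has fewer residual degrees of freedom than the 4 of the main fit. Its calcium difference with ethylene rests on calcium and ethylene replicate 3 against ethylene replicate 3. The median of that difference went from 0.65 to 0.19, and the median interaction turned from 0.14 to -0.31. DESeq2 called 98 of the 150 genes in ethylene against control and 81 in place of 51 in calcium and ethylene against calcium. Over all genes its calls in either direction were 6490 and 6740, against 4727 and 4798 in edgeR. DESeq2 also called 10 for the mean calcium effect, 3 for the calcium difference with ethylene and 8 for the combined treatment against control. Over all genes it called 347, 180 and 4940, where edgeR called 0, 0 and 2659. Without the filter on low counts these 3 member counts were 16, 3 and 14 in edgeR, with 277, 116 and 4400 over all genes. With only the libraries compared, ethylene against control gave 37 and calcium and ethylene against control 15, with 3044 and 4412 over all genes. RLE size factors gave 0 for calcium and ethylene against control, with 2533 over all genes. Without the 2 libraries together, the counts were 36, 23, 19 and 85 for ethylene against control, calcium and ethylene against calcium, calcium and ethylene against control and the mean ethylene effect, and the median for calcium and ethylene against calcium was -0.66 in place of -0.98 and that of the calcium difference with ethylene 0.35.

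With 1 library left out, the counts ran from 0 to 101, 0 to 84, 0 to 12 and 82 to 140 for the same 4 comparisons, from 0 to 8 for calcium and ethylene against ethylene, and from 0 to 9 for the mean calcium effect. The medians ran from -1.41 to -0.78 in ethylene against control, -1.21 to -0.64 in calcium and ethylene against calcium, 0.37 to 1.003 in calcium and ethylene against ethylene, and -0.16 to 0.46 for the interaction, which was below 0 without calcium replicate 1, ethylene replicate 4 or calcium and ethylene replicate 2. Beyond fewer libraries or genes, the cause of these changes was not tested. The named genes' mean ethylene and calcium differences kept sign in all settings, which the choice of genes favours. Values of the 150 genes rest on 40 or more reads and each group on 2 libraries.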
